A study of Mus musculus with 70 samples.

Results

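Immediate early genes were followed across microglia from Cx3cr1CreERT2 mice, in which tamoxifen switches on a Cre recombinase made under the control of Cx3cr1, through 10 genes taken by name: Fos, Jun, Junb, Egr1, Atf3, Ier2, Klf2, Klf6, Dusp1 and Zfp36. All 10 were found by symbol in each of the 5 deposited count tables, under the same Ensembl identifier, out of 25806 genes listed in at least 1 table. The tables hold 70 libraries in 17 groups. Each library came from 500 microglia, sorted for CD11b and CD45 and against the neutrophil marker Ly6G and the macrophage marker CD206, and was prepared with CEL-Seq2, which counts the 3' ends of transcripts. The labels do not say that replicates came from separate mice, so the p-values below measure the spread between these libraries, part of which may be technical. Because the libraries are bulk samples, more cells expressing a gene and more RNA per cell cannot be told apart.

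The groups were as follows. The postnatal table held tamoxifen-treated pups without Cre (Cx3cr1+/+ wildtype, 5 libraries), tamoxifen-treated pups heterozygous for the Littman line of Cx3cr1CreERT2 (5), and pups heterozygous for the Jung line and for Rosa26YFP given oil (5) or tamoxifen (4). The second table held pups treated with UC2288, given per the labels to inhibit CDKN1A, or with its vehicle. It contained Littman Cre+ pups on vehicle with oil (4) or with tamoxifen (4), Cre- wildtype pups on vehicle with tamoxifen (5), and tamoxifen-treated Cre- (3) and Littman Cre+ (5) pups given UC2288 at 100 mg/kg. The adult tables held Littman heterozygotes on oil (4) or tamoxifen (3) and Jung heterozygotes on oil (4) or tamoxifen (4). The last table was titled for BLZ945, an inhibitor of the CSF1 receptor, and held Littman heterozygotes on oil (3) or tamoxifen (4) and Jung heterozygotes with Rosa26YFP on oil (4) or tamoxifen (4). For the adult and BLZ-titled Jung libraries the treatment labels and the titles disagree on which received BLZ945, so each group is named by its title. The labels give BLZ945 at 100 mg/kg to the BLZ-titled Littman and the adult-titled Jung libraries. They give none to the BLZ-titled Jung libraries. The labels give pups of P8 or P14, injected with tamoxifen either at P1 and P3 (0.1 mg each) or at P5 and P7 (0.2 mg each), and adults of 6 to 15 weeks, injected with 4 mg on 2 occasions. They do not say which pup had which schedule. Every Cre+ group carries 1 Cre allele inserted into Cx3cr1 itself, also where oil was the control.

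Immediate early genes are transcribed within minutes of a stimulus, from factors that are already present in the cell, and their transcripts are short-lived. Many of their products are transcription factors of the AP-1, EGR and KLF families, and others are feedback regulators that shut signalling and unstable messages down again. In microglia they respond to activating signals in the brain, and also to enzymatic or mechanical dissociation and sorting after the brain is removed, which makes them a common check on single libraries.

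RefSeq promoters (GRCm38.p6) were available for 8 of the 10 genes; Egr1 and Ier2 are named only. Of these, 4 are printed as the 250 bases before the annotated start, because Fos, Junb and Zfp36 were high together in 1 library and Klf6 passed the test described below in 3 comparisons. Capitals mark matches, on either strand, to TGACG (the core of the cyclic AMP response element), TGACGTCA (its full form, which contains TGACG), the AP-1 site, GCGNGGGCG (the EGR site) or the CArG box bound by serum response factor.
Fos, chr12:85473640-85473889, plus strand: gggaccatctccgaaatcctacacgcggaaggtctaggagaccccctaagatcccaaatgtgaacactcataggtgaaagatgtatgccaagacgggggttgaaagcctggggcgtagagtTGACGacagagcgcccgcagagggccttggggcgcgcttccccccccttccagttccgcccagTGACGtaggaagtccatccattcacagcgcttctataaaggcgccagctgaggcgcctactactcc
Junb, chr8:84978749-84978998, minus strand: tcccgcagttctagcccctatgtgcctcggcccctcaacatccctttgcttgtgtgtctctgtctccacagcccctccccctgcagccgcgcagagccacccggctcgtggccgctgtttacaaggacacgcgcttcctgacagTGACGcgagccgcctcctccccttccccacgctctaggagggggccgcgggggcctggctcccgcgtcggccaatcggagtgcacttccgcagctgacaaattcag
Zfp36, chr7:28379229-28379478, minus strand: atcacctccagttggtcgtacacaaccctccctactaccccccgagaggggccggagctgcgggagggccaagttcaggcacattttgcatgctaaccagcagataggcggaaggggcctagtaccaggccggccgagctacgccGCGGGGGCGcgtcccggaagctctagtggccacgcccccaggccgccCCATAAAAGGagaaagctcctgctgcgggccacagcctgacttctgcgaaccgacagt
Klf6, chr13:5861239-5861488, plus strand: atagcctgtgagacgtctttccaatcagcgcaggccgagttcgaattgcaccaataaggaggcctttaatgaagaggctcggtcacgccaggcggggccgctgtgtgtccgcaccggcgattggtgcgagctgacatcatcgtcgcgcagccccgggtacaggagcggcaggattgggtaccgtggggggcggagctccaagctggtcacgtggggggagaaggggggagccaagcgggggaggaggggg
Fos held TGACG at -129 to -125 and at -66 to -62 from its start, and Junb held it at -106 to -102. Zfp36 held a CArG box at -58 to -49 and an EGR site at -105 to -97. In the Klf6 and Jun windows none of the 5 motifs was found. Among the other 3 windows, Dusp1 held TGACGTCA and a separate TGACG, Klf2 held TGACG and an EGR site, and Atf3 held TGACG on the opposite strand. Of 32851 RefSeq windows of that length, 17.8% held TGACG, 1.55% TGACGTCA, 6.75% the AP-1 site, 4.70% the EGR site and 1.47% the CArG box.

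Library totals were 329329 to 450461 counts for postnatal pups, 116083 to 277680 with vehicle or UC2288 and 184513 to 347941 in the other tables. Levels are given as CPM, the count scaled to the library total, and 1 count stood for 2.22 to 3.04 CPM in a postnatal library and for 3.60 to 8.61 CPM in a library with vehicle or UC2288. Cx3cr1, which the Cre insertion interrupts, was at 1267 to 1514 CPM in the 5 postnatal Littman Cre+ libraries and at 3718 to 4009 CPM in the 5 Cre- libraries, which matches the labels of all 10. Summed microglial markers (12 genes, among them P2ry12, Tmem119 and Csf1r) were present in every library, from 8314 to 33736 CPM. Neutrophil markers were above 100 CPM in 4 of the 70 libraries, namely postnatal Cre- replicate 2 (1169 CPM), BLZ-titled Littman oil replicate 3 (2951 CPM), BLZ-titled Littman tamoxifen replicate 1 (2535 CPM) and UC2288 Cre- replicate 1 (687 CPM), and at most 2.29 CPM elsewhere. The 10 genes summed to between 481 and 729 CPM in those 4 libraries.

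Of the 10 genes, 5 did not pass the low-count filter in any table and were not tested. Fos, which encodes the inducible partner of Jun in the AP-1 dimer, had 0 counts in 45 of 70 libraries and at most 3 in 68. Egr1, a zinc finger factor, had at most 3 counts in 57 libraries, and Atf3, a stress-induced factor of the ATF family, in 53. Dusp1, the phosphatase that inactivates MAP kinases, had at most 3 counts in 62 libraries, and Ier2, a nuclear early response protein, in 33. For these genes a level near 1 to 3 counts says little, and they are described by single libraries below. Dusp1 had 14 counts (61.7 CPM) in BLZ-titled Littman tamoxifen replicate 4 and 2, 3 and 0 in the other libraries of that group. Egr1 had 11 counts (37.6 CPM) in adult Jung oil replicate 3 and 0, 1 and 1 in the others. The first of these libraries was also the highest of its group in Junb (295 CPM) and Klf6 (357 CPM), and its 10 genes summed to 1039.9 CPM, the second highest sum of the 70 libraries. Its microglial marker sum of 13043 CPM was the lowest of its group (16713 to 22801 CPM in the other 3) and its monocyte sum of 242 CPM the highest (25.4 to 116 CPM); their part in these levels was not tested. In the adult library Jun and Junb were the lowest of the group (154 and 133 CPM), while Klf6 was the highest (390 CPM). The other 5 had counts in most libraries: Jun, Junb and Klf6 were above 3 counts in all 70 and Zfp36 in 69, whereas Klf2, a zinc finger factor, had at most 3 counts in 25. The low-count filter kept Jun, Junb, Klf6 and Zfp36 in all 5 tables and Klf2 in 2, those of the UC2288 experiment and of adult Littman mice.

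**Figure D1:**
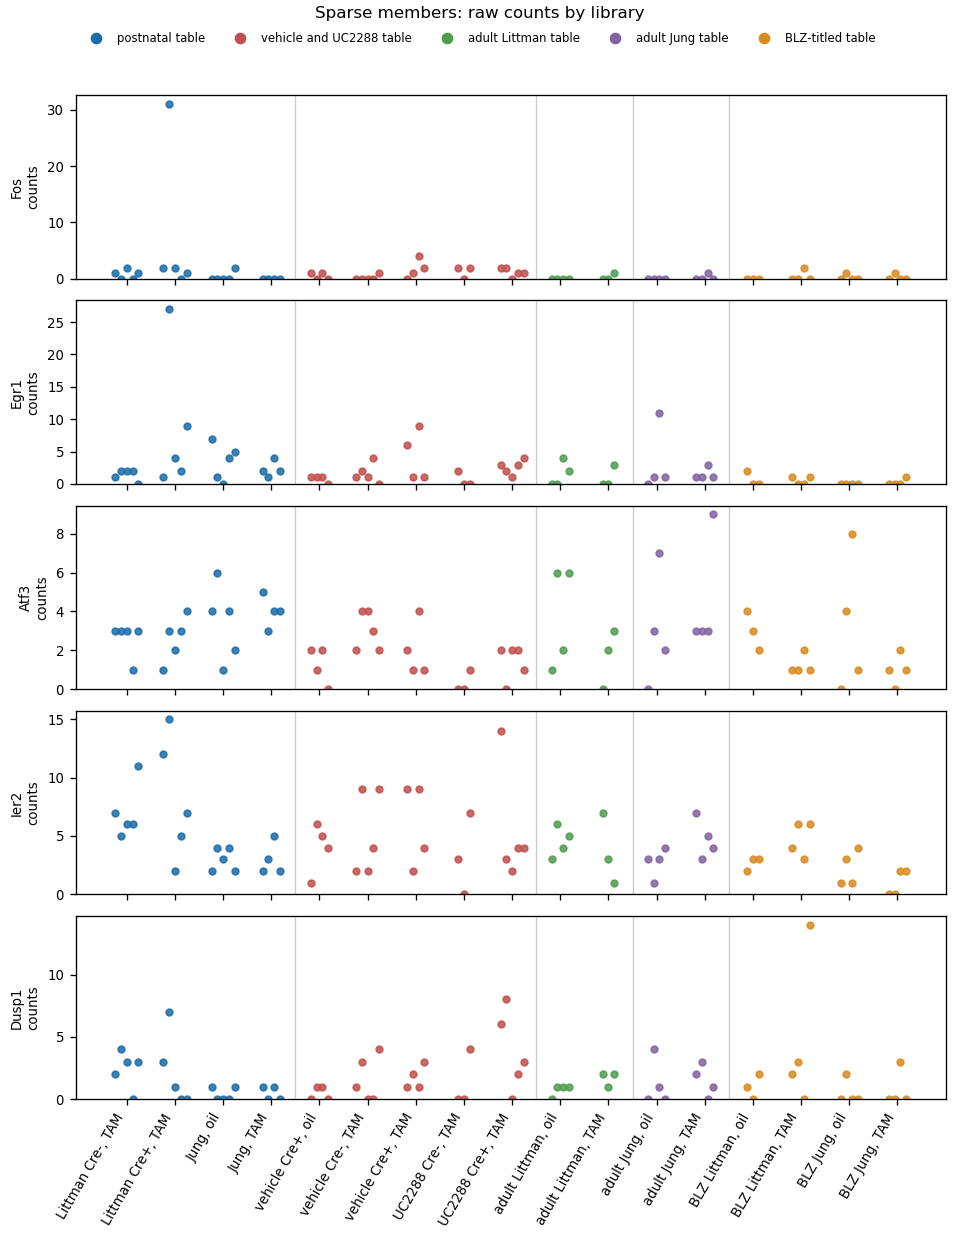
Raw counts of Fos, Egr1, Atf3, Ier2 and Dusp1 (y axis, counts per library) in the 17 groups (x axis, colours mark the 5 tables), 1 point per library. Fos is at 0 to 4 counts everywhere but in 1 postnatal Littman Cre+ library, which has 31.

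The library that stood apart was replicate 2 of the postnatal Littman Cre+ group. Fos had 31 counts there (82.5 CPM), against 2, 2, 0 and 1 counts in replicates 1, 3, 4 and 5. Jun, the AP-1 partner of Fos, stood at 343 CPM, against 77.0, 94.3, 88.8 and 87.1 CPM in the other 4. Junb, a second AP-1 subunit, stood at 364 CPM, against 86.1, 102, 79.9 and 73.3 CPM. In all 3 genes the other 4 libraries lay close together and this one lay 3.95 to 28.3 times above their mean. Egr1 had 27 counts against 1, 4, 2 and 9. Zfp36, which encodes tristetraprolin, the protein that directs unstable messages to decay, had 253 CPM against 65.7, 67.7, 57.7 and 48.1 CPM. Dusp1 had 7 counts against 0 to 3, and Ier2 had 15 against 2 to 12, so Ier2 was only slightly above the next library.

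Not every member was raised in that library. Klf6, a zinc finger factor of the KLF family, was at 367 CPM and the other 4 at 244 to 298 CPM, a ratio of 1.35. Klf2 stood at 26.6 CPM within the others' 16.9 to 45.3 CPM, and Atf3 had 3 counts where the others had 1 to 4. The 10 genes summed to 1575 CPM there, against 511 to 605 CPM in the other 4 libraries of the group and 333 to 1040 CPM in the remaining libraries of the series.

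**Figure D2:**
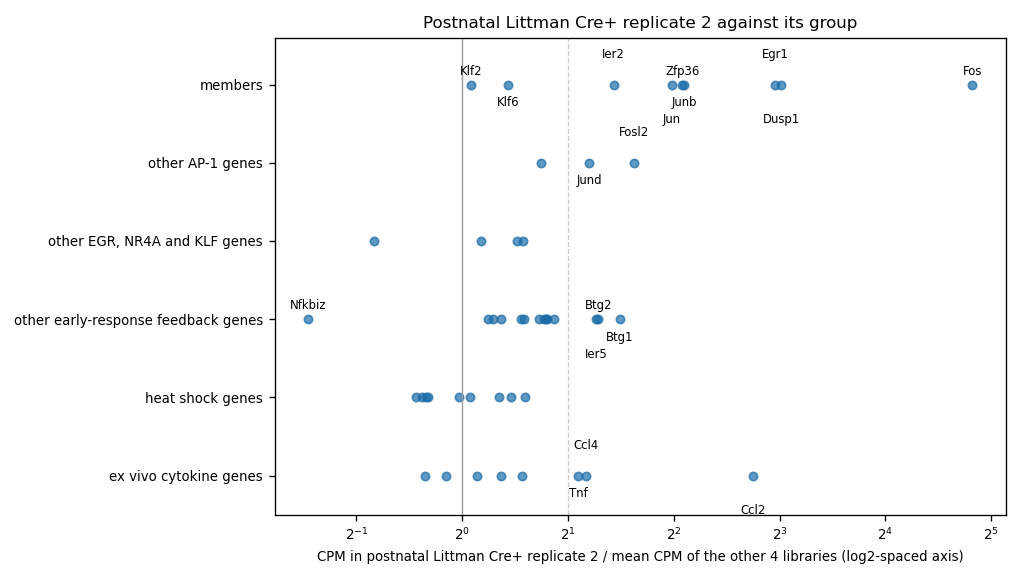
Ratio of CPM in postnatal Littman Cre+ replicate 2 to the mean of the other 4 libraries of its group (x axis, log2-spaced), 1 point per gene, by list (y axis); genes with fewer than 10 counts in this library and the highest other one together are left out, which removes Atf3, as are genes with no ratio above 0. Fos, Egr1, Dusp1, Jun, Junb and Zfp36 lie near or above 4, while heat shock genes lie between 0.74 and 1.51.

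Among other early-response genes, Fosl2 had 12 counts there and 3 to 6 elsewhere in the group, and Jund, the AP-1 subunit that most cells express constitutively, was 2.29 times the others' mean. Btg1 and Btg2, antiproliferative early genes, stood at 2.81 and 2.44 times, and Ier5 at 2.40 times. In total 3 of 14 tested feedback genes, 1 of 2 tested AP-1 genes other than the members and 0 of 2 tested EGR, NR4A and KLF genes were at least 2-fold higher, next to 1.67% of all 7076 tested genes. Of the 4 tested members, 3 were (Jun, Junb and Zfp36). The library was picked out because these genes were high in it, so their count cannot be weighed against the share of all genes. Heat shock genes can also be raised by dissociation. Among them Hspa1a, Hspa1b, Hspb1 and Hsph1 had too few counts to be tested (1, 2, 1 and 5 here). Of the 8 tested heat shock genes 0 were at least 2-fold higher. Of 6 tested cytokine genes 2 were, Ccl2 at 6.72 times and Ccl4 at 2.26 times, while Nfkbiz, an inducible regulator of NF-kB, was lower at 0.36 times. These ratios describe 1 library and carry no test.

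This library had 375885 counts, within the totals of its table though below the 413438 to 450461 of the rest of its group. Its microglial marker sum of 26128 CPM lay among those of the other 4 (20802 to 27745 CPM), its mitochondrial share of 5.12% lay just below theirs (5.33% to 6.69%), and neutrophil markers were at 0. It had 64 counts of the Y-linked gene Ddx3y and 2 of Xist, the RNA that silences an X chromosome in females. Replicate 1 of the group had 69 and 0, and replicates 3, 4 and 5 had 0 counts of Ddx3y and 296 to 349 of Xist. Replicate 1, which shares the Y-linked transcript, had Fos, Jun, Junb and Zfp36 at the level of the rest. Ccr6, a chemokine receptor gene chosen after its values were seen, had 48 counts in replicate 2 and 0 or 1 in the other 4 Cre+ libraries, and 62 to 72 in 4 of the 5 Cre- libraries and 1 in the other. The part of any of these in the raised early genes was not tested.

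Littman Cre+ pups were compared with Cre- pups, both on tamoxifen, to ask how the Cre allele and its activation go with the microglial transcriptome. Klf6 rose 1.47-fold in Cre+ microglia (log2 fold change 0.56 ± 0.12 SE, edgeR adjusted p = 0.00162). It measured 276, 367, 298, 244 and 268 CPM in the Cre+ libraries and 206, 183, 199, 256 and 167 CPM in the Cre- libraries. Only the lowest Cre+ and the highest Cre- library overlapped. This was 1 of 4 tested members, where 7.8% of all tested genes were called (4.56% higher and 3.24% lower). Leaving out each library in turn kept the Klf6 call in all 10 fits, and without the library that stood apart the log2 fold change was 0.47 ± 0.13 (edgeR adjusted p = 0.00921).

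Zfp36, Junb and Jun did not pass the test in that comparison. Zfp36 gave a log2 fold change of 0.71 ± 0.29 (edgeR adjusted p = 0.131), Junb 0.40 ± 0.25 (0.414) and Jun 0.21 ± 0.24 (0.733). Without Cre+ replicate 2 these became 0.05 ± 0.21, -0.28 ± 0.16 and -0.42 ± 0.16, so that the direction for Junb and Jun turned, and the median of the 4 tested members went from 0.48 to -0.12 while the median of all tested genes was near 0.00. Fitted with no low-count filter, edgeR called 5 members higher (Klf6, Fos, Egr1, Zfp36 and Klf2), where 1.84% of 19820 genes were called higher. Without the filter and without replicate 2 it called Klf6 and Klf2, where 1.96% were called higher. Klf2 had 45.3, 26.6, 16.9, 17.8 and 20.6 CPM in the Cre+ libraries and 10.5, 2.55, 0, 26.6 and 8.78 CPM in the Cre- libraries, which overlap.

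The other early-response lists were read in this comparison, where 4.56% of all tested genes were called higher and 3.24% lower. Of 14 tested feedback genes 0 rose and 2 fell, namely Rhob (1.52-fold, edgeR adjusted p = 0.000341) and Sgk1 (1.35-fold, 0.0297), early genes of cytoskeletal and kinase signalling. Of 8 heat shock genes 1 rose, the mitochondrial co-chaperone Hspe1 (1.44-fold, edgeR adjusted p = 0.00491). Of 6 cytokine genes 3 rose, namely Ccl12 (2.52-fold, edgeR adjusted p = 1.12e-08), Ccl2 (7.33-fold, 0.000217) and Cd83 (1.77-fold, 0.0152). Ccl2 was uneven, at 61.1 ± 73.7 CPM (SD, n = 5) in Cre+ and 7.99 ± 4.97 CPM (SD, n = 5) in Cre- libraries, and without Cre+ replicate 2 it no longer passed the low-count filter, while Ccl12, Cd83, Hspe1, Rhob and Sgk1 were still called. Jund was then called lower (1.49-fold, edgeR adjusted p = 0.00518). With all libraries, none of the 2 tested AP-1 genes or 2 tested EGR, NR4A and KLF genes outside the 10 passed the test. Beside these, 7 of 12 microglial markers fell and 1 rose, the border macrophage marker Mrc1 rose 1.52-fold and the monocyte marker Plac8 rose 4.94-fold. The endothelial marker Pecam1 fell 3.05-fold and the astrocyte marker Slc1a3 fell 1.39-fold (edgeR adjusted p = 0.00204 and 0.0430). The whole monocyte list summed to 29.3 to 120 CPM in Cre+ and 5.11 to 53.5 CPM in Cre- libraries, with 4 of its 8 genes at 0 in Cre+, among them Ly6c2; the part of these in the Klf6 difference was not tested.

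**Figure D3:**
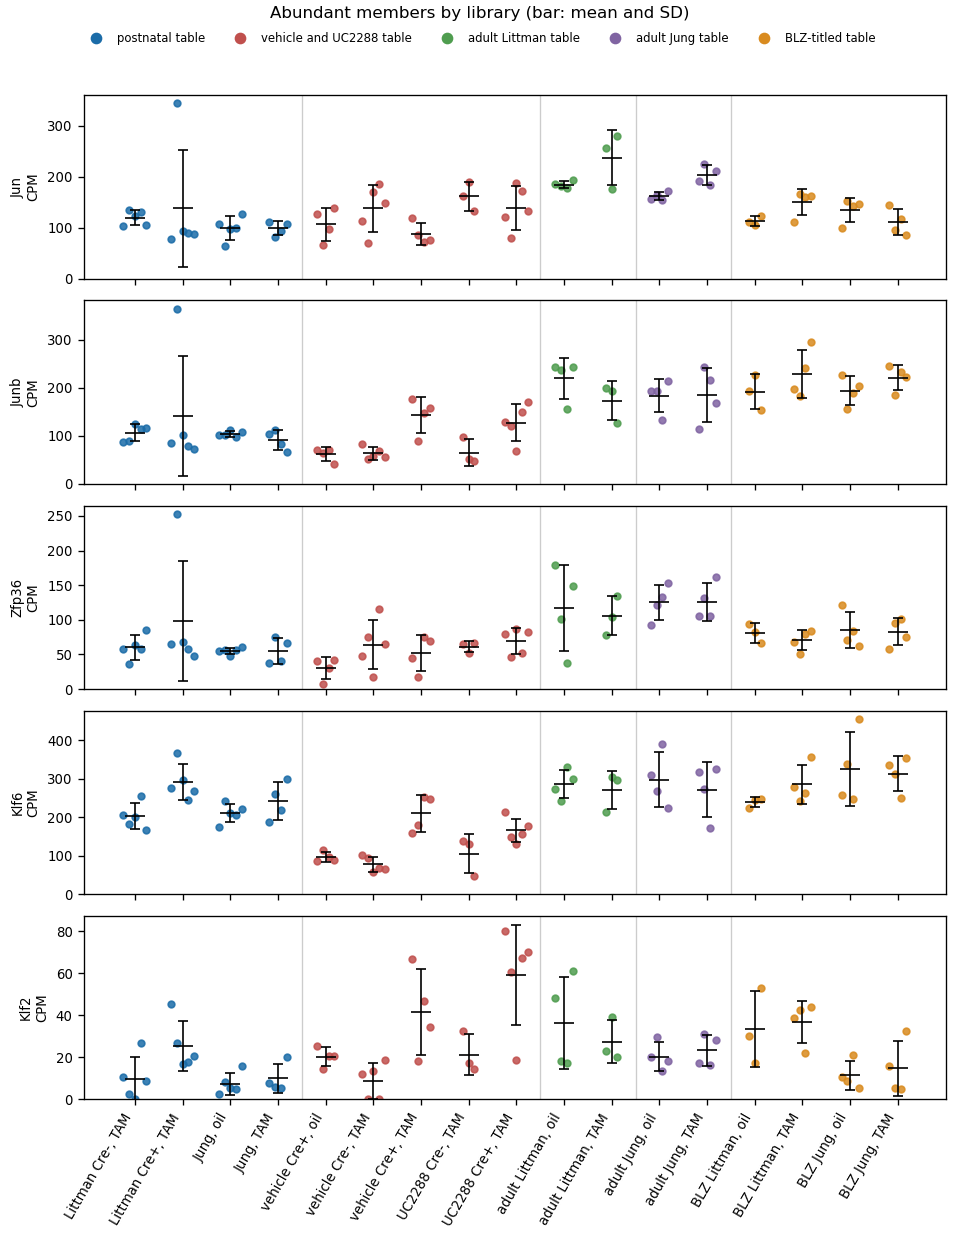
CPM of Jun, Junb, Zfp36, Klf6 and Klf2 (y axes, counts scaled to the library total) in the 17 groups (x axis, colours mark the 5 tables), 1 point per library, with black bars for the mean and SD. Klf6 and Junb of the vehicle Cre+ tamoxifen libraries lie above both of their control groups, and 1 postnatal Littman Cre+ library lies far above its group in Jun, Junb and Zfp36.

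Littman Cre+ and Jung pups on tamoxifen were compared to set the 2 Cre lines side by side; the comparison shares its Cre+ libraries with the one above. None of the 4 tested members passed, where 6.74% of tested genes were called (3.82% higher and 2.93% lower). Their log2 fold changes were 0.31 to 0.85, with Zfp36 highest (edgeR adjusted p = 0.0961), and without Cre+ replicate 2 the median of the 4 went from 0.55 to 0.07. Junb turned from 0.62 to -0.05 and Jun from 0.48 to -0.14. Without Cre+ replicate 5 Zfp36 was called (log2 1.02 ± 0.31, edgeR adjusted p = 0.0414), and without Jung tamoxifen replicate 4 Klf2, which then passed the low-count filter, was called (1.97 ± 0.61, edgeR adjusted p = 0.0490). With no low-count filter edgeR called Fos, Zfp36, Junb and Egr1 higher, where 1.68% of genes were called higher, and without both the filter and replicate 2 it called 0 members, where 1.79% were called higher. Of 14 tested feedback genes 2 were higher, the NF-kB inhibitor gene Nfkbia (1.56-fold, edgeR adjusted p = 0.00812) and Ier3 (2.26-fold, 0.0483). Of 8 heat shock genes Hsp90ab1 was higher (1.29-fold, edgeR adjusted p = 0.0388). Of 6 cytokine genes 3 were, namely Ccl12 (2.57-fold), Ccl2 (9.19-fold) and Il1a (1.67-fold). Without Cre+ replicate 2 Ier3 was no longer called (edgeR adjusted p = 0.116). Among marker genes 7 of 12 microglial markers were lower in Littman Cre+ libraries, Mrc1 was 1.78-fold and Plac8 5.60-fold higher, and Pecam1 was 4.15-fold and Slc1a3 1.47-fold lower. Their part in the member values was not tested.

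Tamoxifen and oil were compared in Jung pups to ask what tamoxifen does in the second line. None of the 4 tested members passed (0.0848% of tested genes were called), with log2 fold changes from -0.19 to 0.19. Klf6 measured 175, 241, 210, 206 and 221 CPM on oil and 186, 261, 219 and 299 CPM on tamoxifen, so the groups overlapped, and the fitted difference of 0.19 had an approximate 95% interval of -0.07 to 0.46. Fos was at 0 counts in 8 of these 9 libraries and at 2 in 1 oil library.

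The clearest group differences lay in the vehicle-treated pups. Klf6 and Junb were both about 2-fold higher in Cre+ microglia on tamoxifen than in Cre+ microglia on oil, and than in Cre- microglia on tamoxifen. The 2 comparisons share the Cre+ tamoxifen libraries, so their values are given side by side and neither supports the other.

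Klf6 measured 159, 180, 252 and 248 CPM in the 4 vehicle Cre+ tamoxifen libraries. On oil it measured 86.0, 116, 96.9 and 90.1 CPM, and in the 5 Cre- libraries 102, 93.6, 58.2, 69.2 and 65.3 CPM. The tamoxifen-treated Cre+ libraries overlapped with neither group. How many of all genes separated in this way was not counted, and 31.4% of tested genes were called over oil and 27.2% over Cre-. The increase of Klf6 was 1.97-fold over oil (log2 0.98 ± 0.26 SE, edgeR adjusted p = 0.00429) and 2.36-fold over Cre- (1.24 ± 0.25, 0.000282).

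Junb measured 178, 90.0, 148 and 159 CPM in the vehicle Cre+ tamoxifen libraries. On oil it measured 70.8, 65.2, 71.4 and 41.6 CPM, and in Cre- libraries 84.1, 51.5, 58.2, 69.2 and 55.9 CPM. Here too the groups did not overlap, although replicate 2 came within a few CPM of the highest Cre- library. Again, how many of all genes separated in this way was not counted. Junb rose 2.07-fold over oil (log2 1.05 ± 0.29 SE, edgeR adjusted p = 0.00643) and 1.99-fold over Cre- (0.99 ± 0.27, 0.00580).

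Klf2, known for restraining inflammatory gene expression in myeloid and endothelial cells, passed the test against Cre- only. It had 18, 4, 13 and 5 counts (66.7, 18.0, 46.8 and 34.5 CPM) in the Cre+ tamoxifen libraries, 2, 0, 3, 0 and 4 counts in the Cre- libraries and 5, 2, 4 and 3 counts on oil. It rose 3.92-fold over Cre- (log2 1.97 ± 0.57 SE, edgeR adjusted p = 0.00947), and the call was lost without Cre+ replicate 1 (0.0597). Over oil the log2 fold change was 0.90 ± 0.54 (edgeR adjusted p = 0.210). Whether the 2 changes differ was not tested.

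Jun went the other way. It measured 118, 85.5, 72.0 and 75.8 CPM in the Cre+ tamoxifen libraries and 114, 70.2, 170, 185 and 149 CPM in Cre- libraries, with overlap through Cre- replicates 1 and 2. It fell 1.75-fold (log2 -0.81 ± 0.28 SE, edgeR adjusted p = 0.0268), a call lost in 6 of the 9 fits that left out 1 library, where the adjusted p reached 0.111. Against oil it did not pass (-0.40 ± 0.31, edgeR adjusted p = 0.325). Zfp36 passed neither test, at 0.59 ± 0.47 over oil and -0.48 ± 0.39 over Cre- (edgeR adjusted p = 0.353 and 0.370).

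Read over all 10 genes, 2 of 5 tested members rose over oil, where 31.4% of all tested genes were called and 16.1% were called higher and 15.3% lower. Over Cre-, 3 rose and 1 fell, where 27.2% were called, 14.3% higher and 12.9% lower. The median log2 fold change of the 5 tested members was 0.90 over oil and 0.99 over Cre-, next to 0.00 and -0.01 for all tested genes. On library totals without TMM scaling the log2 fold changes would be higher by 0.15 over oil and by 0.22 over Cre-. Of the sparse members, Egr1 had 6, 1, 9 and 1 counts and Fos 0, 1, 4 and 2 in the Cre+ tamoxifen libraries. Oil libraries had at most 1 of each, and in Cre- libraries Egr1 had 0 to 4 and Fos 0 or 1. Summed over libraries, Atf3 had 8 counts in Cre+ tamoxifen, 5 on oil and 15 in Cre-, Ier2 had 24, 16 and 26, and Dusp1 7, 2 and 8. These groups differ in depth and library number. With no low-count filter, edgeR gave Egr1 an adjusted p of 0.282 over oil and 0.556 over Cre-, and Fos 0.626 and 0.366.

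**Figure D4:**
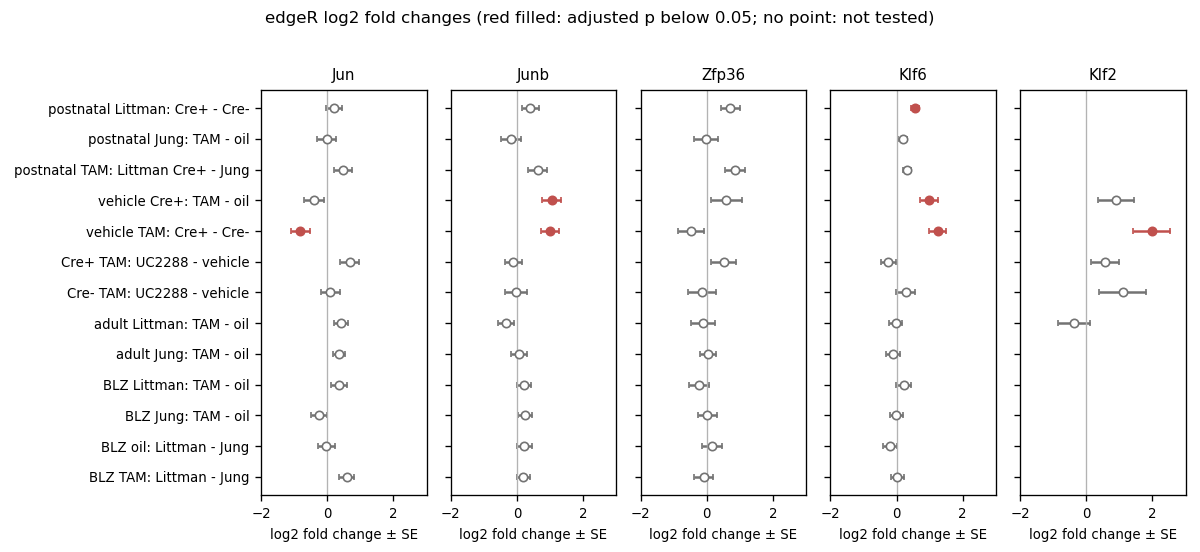
log2 fold change with its SE from edgeR (x axes) for the 5 members that passed the low-count filter, in the 13 pairwise comparisons (y axis); red filled points have an adjusted p below 0.05 and a gene without a point was not tested there. Red points appear for Klf6 in 3 comparisons, for Junb in 2, and for Jun and Klf2 in 1 each.

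The companion lists were read in the same comparisons. Over oil, 2 of 11 tested feedback genes rose, the NF-kB inhibitor gene Nfkbia (4.25-fold, edgeR adjusted p = 1.24e-05) and the survival gene Mcl1 (1.64-fold, 0.0456), and Rhob fell 1.49-fold (0.0440). Over Cre-, Nfkbia rose 3.26-fold (edgeR adjusted p = 3.85e-05) and Rhob fell 1.69-fold (0.00654). Of 7 heat shock genes 0 rose and 1 fell in each comparison, the constitutive chaperone Hspa8, and neither the 1 tested AP-1 gene nor the 1 tested EGR, NR4A or KLF gene outside the 10 passed. Of 9 cytokine genes 7 rose over oil and 6 over Cre-, with median log2 fold changes of 2.90 and 1.31. The chemokine gene Ccl2 went from 31.5 CPM on oil and 39.2 CPM in Cre- to 791 ± 150 CPM (SD, n = 4), and Ccl12 from 121 and 160.0 CPM to 1159 ± 294 CPM (SD, n = 4).

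Marker genes moved together with Klf6 and Junb. Microglial markers summed to 8314 to 9387 CPM in vehicle Cre+ tamoxifen libraries, 19756 to 23795 CPM on oil and 18005 to 19856 CPM in Cre-, and 10 of the 12 fell in each comparison, P2ry12 most (5.23-fold over oil, edgeR adjusted p = 3.74e-06). The monocyte list summed to 110 to 281 CPM, against 0 to 29.0 CPM on oil and 4.48 to 28.1 CPM in Cre-. Nearly all of that was Plac8 (187 ± 80.3 CPM, SD, n = 4), while Ly6c2, Chil3 and S100a4 were at 0 and Ccr2 had 3 counts over the 4 libraries. The border macrophage marker Mrc1 fell 2.83-fold over oil and 3.18-fold over Cre-. The astrocyte marker Slc1a3 rose 3.10-fold over oil and 2.42-fold over Cre- (edgeR adjusted p = 0.00591 and 0.0144), and the astrocyte list summed to 67.5 to 104 CPM, against 30.4 to 45.9 CPM on oil and 18.7 to 57.7 CPM in Cre-. Neutrophil markers were at 0 in all 3 groups. The mitochondrial share was 7.76% to 9.59% in these libraries, 8.93% to 12.3% on oil and 11.1% to 15.9% in Cre-. The part of any of these in the Klf6 and Junb differences was not tested.

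UC2288 was compared with vehicle on tamoxifen, in Cre+ and in Cre- pups, to ask what inhibiting CDKN1A changes. None of the 5 tested members passed in Cre+ pups, where 0.727% of tested genes were called (0.646% higher and 0.0808% lower). Klf6 measured 212, 149, 131, 157 and 178 CPM in the 5 UC2288 Cre+ libraries, overlapping with vehicle Cre+, with a log2 fold change of -0.25 ± 0.23 and an approximate 95% interval of -0.70 to 0.19. Junb measured 128, 121, 68.6, 150 and 171 CPM, with a log2 fold change of -0.10 ± 0.25 and an interval of -0.59 to 0.38. Jun was 120, 79.1, 187, 172 and 133 CPM (0.68 ± 0.28, edgeR adjusted p = 0.215), and Klf2 80.1, 60.5, 18.7, 67.4 and 69.8 CPM (0.56 ± 0.43, 0.537). These intervals leave room for decreases and increases of the sizes given.

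Within that group replicate 3 was lowest in Klf6, Junb and Klf2. It also had the highest microglial marker sum, 21787 CPM against 8481 to 9612 CPM in the other 4, and the lowest cytokine and monocyte sums, 1185 against 1877 to 3885 CPM and 93.6 against 152 to 298 CPM. With each of the 9 libraries left out in turn, this one included, 0 members were called.

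In Cre- pups UC2288 changed none of the 5 tested members at the threshold, where 0.0202% of tested genes were called. Klf6 was 138, 129 and 47.4 CPM on UC2288, so these 3 libraries spanned a wider range than the 5 on vehicle. Atf3 had 0, 0 and 1 counts on UC2288 and 2, 4, 4, 3 and 2 on vehicle. The CPM of the groups did not overlap, and how many of all genes separated in this way was not counted. Without the low-count filter edgeR gave Atf3 an adjusted p of 0.722. The difference of the UC2288 effect between Cre+ and Cre- pups was called for 0 of the 5, where 1.94% of tested genes were called (0.949% higher and 0.989% lower), with log2 values of -0.54 to 0.64 and adjusted p from 0.397 to 0.935 in edgeR.

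In adults tamoxifen was compared with oil within each line. None of the 5 tested members passed for Littman or of the 4 for Jung, where 0.0181% and 0% of tested genes were called; 154 and 113 genes had an unadjusted p under 0.05. DESeq2 called 0 members in both. Jun was the member with the lowest unadjusted p in both tables. In Jung mice it measured 156, 165, 154 and 171 CPM on oil and 192, 225, 184 and 211 CPM on tamoxifen, without overlap (log2 0.36 ± 0.19, edgeR unadjusted p = 0.0683, adjusted p = 0.9999). In Littman mice it measured 186, 181, 177 and 193 CPM on oil and 256, 176 and 279 CPM on tamoxifen, with overlap through replicate 2 (0.41 ± 0.21, edgeR unadjusted p = 0.0702, adjusted p = 0.998). How many of all tested genes separated without overlap, as Jun did in Jung mice, was not counted.

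Klf6 in adults was 297 ± 71.4 CPM (SD, n = 4) on oil and 272 ± 70.9 CPM (SD, n = 4) on tamoxifen in Jung mice, and 286 ± 37.1 CPM (SD, n = 4) and 271 ± 49.9 CPM (SD, n = 3) in Littman mice. Its log2 fold changes were -0.10 ± 0.21 and -0.03 ± 0.20, with approximate 95% intervals of -0.52 to 0.31 and -0.41 to 0.35. Junb measured 244, 236, 156 and 244 CPM on oil and 200.3, 192 and 126 CPM on tamoxifen in Littman mice (-0.33 ± 0.23, edgeR adjusted p = 0.998). Fos had 1 count in 1 library of each adult table and 0 in the others. None of the companion genes of the 5 lists was called in either line.

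In the BLZ-titled libraries the members again did not pass. Tamoxifen and oil differed for 0 of 4 tested members in Littman mice, where 0.0581% of tested genes were called, and for 0 of 4 in Jung mice, where 0% were called and 287 genes had an unadjusted p under 0.05. The log2 fold changes were -0.25 to 0.36 and -0.25 to 0.23. Ier2, which did not pass the low-count filter, had 13.4 to 26.4 CPM on tamoxifen and 8.58 to 13.3 CPM on oil in Littman mice. The sum of the 10 genes was 724 to 1040 CPM and 677 to 704 CPM there. Neither overlapped, and how many of all genes separated in this way was not counted. Without that filter edgeR gave Ier2 an adjusted p of 0.823. The difference of the tamoxifen effect between the lines was called for 0 of 4 (0% of tested genes, 417 with an unadjusted p under 0.05), with Jun highest at 0.61 ± 0.34 (edgeR adjusted p = 0.672).

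The lines themselves were also compared, on oil and on tamoxifen. Of the 4 tested members 0 were called on oil, where 9.12% of tested genes were called (6.72% higher and 2.4% lower), and 0 on tamoxifen, where 5.48% were (3.87% higher and 1.61% lower). Jun came closest, on tamoxifen, with 112, 165, 160.3 and 163 CPM in Littman and 144, 95.5, 117 and 86.7 CPM in Jung libraries (log2 0.59 ± 0.23, edgeR adjusted p = 0.141). Klf6 was 285 ± 50.4 CPM (SD, n = 4) in Littman and 312 ± 45.5 CPM (SD, n = 4) in Jung mice on tamoxifen. On oil the sum of the 10 genes was 677 to 704 CPM in Littman and 723 to 901 CPM in Jung libraries. On tamoxifen Ier2 was 13.4 to 26.4 CPM in Littman and 0 to 10.8 CPM in Jung libraries. Here too neither overlapped, with no count over all genes. In the same libraries 5 of 7 tested cytokine genes were higher in Littman mice on oil and 5 of 7 on tamoxifen. Ccl12 stood at 1019 ± 170 CPM (SD, n = 3) against 126 CPM on oil, and Cxcl10 at 306 ± 54.7 CPM (SD, n = 3) against 0 counts. On oil the heat shock gene Hspe1 was 2.98-fold higher and Btg2 2.03-fold lower (edgeR adjusted p = 0.000116 and 0.0154), and on tamoxifen Rhob was 1.64-fold lower (0.0143). Of the markers, Olfml3 was 1.57-fold higher and the oligodendrocyte gene Mag 4.16-fold lower in Littman mice on oil, and on tamoxifen 5 of 12 microglial markers were lower (Cx3cr1, Gpr34, Fcrls, Sall1 and P2ry12, by 1.63-fold to 2.00-fold). The line also differs in the Rosa26YFP allele and in the conflicting treatment labels, by which only the Littman libraries here had BLZ945. These cannot be told apart from the line.

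Over all 15 comparisons 66 tests of members were made and 7 were called, all of them in 3 comparisons of Littman Cre+ pups on tamoxifen. Of all tested genes, 7.8% were called in postnatal Cre+ against Cre-. In vehicle Cre+ pups on tamoxifen, 31.4% were called over oil and 27.2% over Cre-. In the other comparisons 0% to 9.12% were called, with 9.12% between BLZ-titled lines on oil, where 0 of 4 tested members were called. The 2 vehicle comparisons thus also had the largest shares of all genes called. The 3 comparisons with member calls are not independent, since 2 of them share their Cre+ libraries. Levels in different tables were not tested against each other. The tables differ in depth and in the age and treatment of the mice, which cannot be told apart from the table. Side by side, Klf6 had its lowest group means in the vehicle and UC2288 table, 77.7 ± 19.1 CPM (SD, n = 5) in vehicle Cre-, 97.2 ± 13.3 CPM (SD, n = 4) on vehicle with oil and 105 ± 50.1 CPM (SD, n = 3) in UC2288 Cre-, neighbours whose ranges overlap. They were followed by UC2288 Cre+ at 165 ± 31.1 CPM (SD, n = 5) and then postnatal Cre-, vehicle Cre+ tamoxifen and postnatal Jung oil within 202 to 211 CPM, with overlapping ranges again. The highest means were those of BLZ-titled Jung mice on oil, 325 ± 96.4 CPM (SD, n = 4), and on tamoxifen, 312 CPM. Mean Junb went from 62.3 ± 14.1 CPM (SD, n = 4) on vehicle with oil to 229 ± 50.7 CPM (SD, n = 4) in BLZ-titled Littman mice on tamoxifen.

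Within groups, the 4 members tested in every table were also set against each other. Over the 19 postnatal libraries, with each group's mean removed from log2 CPM, Pearson's r was 0.82 between Jun and Junb and 0.83 between Junb and Zfp36. Over the 18 libraries without Littman Cre+ replicate 2 these were -0.01 and 0.32, so the relation rests on that library. All 6 pairs of Jun, Junb, Klf6 and Zfp36 were at 0.34 to 0.83 with it and at -0.28 to 0.38 without it. In the other 4 tables the median over the 6 pairs was -0.21 to 0.13. These libraries share depth and preparation, and the values are a description without a test.

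Of 3885 genes tested in all 5 tables, the 5 most like the mean of Jun, Junb, Klf6 and Zfp36 over the 70 libraries, by the median over tables of r on group-centred log2 CPM, were Pnrc1 (0.75), Btg2 (0.72), Adipor1 (0.66), Cd14 (0.64) and Eif4a1 (0.62). The median over all 3885 genes was 0.02. For 4 of the 5 genes r was negative in at least 1 table, and Btg2 went from 0.72 to 0.17 in the postnatal table without replicate 2.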

How the data were processed

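CEL-Seq2 libraries of 500 sorted microglia were deposited as 5 tables of raw whole-number counts per gene, made by the authors on GRCm38. Per the submitters' processing notes the tools were HISAT2, featureCounts, UMI-tools and Trim Galore; versions, roles, strand setting and any removal of duplicate molecules were not given in the sources used here. Groups come from sample titles.

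CPM was each count over the library's column total, without further scaling. Groups were compared within a table with edgeR 4.0.16 (R 4.3.3, limma 3.58.1): genes were kept by filterByExpr with the groups, scaled by TMM and tested by quasi-likelihood with every group of a table in the same model. P-values were adjusted over all tested genes (Benjamini-Hochberg), with calls below 0.05. The procedure was tested on simulated data. SE is the log2 fold change over the square root of F, and approximate 95% intervals are normal ones from it. Alternatives were DESeq2 1.42.0, RLE size factors, no low-count filter, a replicate block, TMM-scaled CPM and leaving out each library. Fits with neither the filter nor Cre+ replicate 2 were added after seeing the data. Replicates were compared by chi-square, and 0 pairs were identical.

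The members and lists were chosen with earlier results of these data known. All members are named, with up to 3 called genes per companion list (lowest p), called markers (named or counted) and the 5 genes most alike. RefSeq promoters came from GRCm38.p6.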

Additional observations from a re-analysis of the deposited data

Results flagged for a closer look

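In groups of 4 to 10 libraries, 154 sets of values were examined for a highest or lowest library far from the others, and 24 were picked out. Chance gives about 1 in 20 for continuous values only. A single count among zeros is always picked out, and the sets include the sum of the same genes. The 24 can therefore not be set against that rate. Of the 24, 12 rested on a gap of at least 3 counts. Postnatal Littman Cre+ replicate 2 accounted for 6, as the highest library in Fos (82.5 CPM), Egr1 (71.8 CPM), Jun (343 CPM), Junb (364 CPM), Zfp36 (253 CPM) and the sum of the 10 genes (1575 CPM). The sum was also far from the rest in postnatal Jung oil replicate 5 (566 CPM).

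Single high libraries of Atf3 were adult Jung tamoxifen replicate 4 (31.7 CPM) and BLZ-titled Littman tamoxifen replicate 3 (8.90 CPM), and postnatal Cre- replicate 4 was low (2.66 CPM). Dusp1 was high in BLZ-titled Jung oil replicate 2 (8.90 CPM) and tamoxifen replicate 3 (15.2 CPM), and at 0 in adult Littman oil replicate 1. Egr1 was high in adult Jung oil replicate 3 (37.6 CPM), adult Jung tamoxifen replicate 3 (9.84 CPM) and BLZ-titled Jung tamoxifen replicate 4 (5.42 CPM).

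Fos was the highest by 1 or 2 counts in adult Jung tamoxifen replicate 3 (3.28 CPM), BLZ-titled Jung oil replicate 2 (4.45 CPM), BLZ-titled Jung tamoxifen replicate 2 (5.30 CPM), BLZ-titled Littman tamoxifen replicate 3 (8.90 CPM), postnatal Jung oil replicate 5 (5.31 CPM) and vehicle Cre- tamoxifen replicate 5 (4.66 CPM). Jun was low in BLZ-titled Littman tamoxifen replicate 1 (112 CPM), a library with neutrophil markers at 2535 CPM, and Junb was low in adult Littman oil replicate 3 (156 CPM).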

How the results depend on the processing

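For the 10 member fold changes called in at least 1 setting, 134 values came from other settings: 121 kept direction and call, 7 lost the call, 4 gained it and 2 turned. The 56 changes never called turned in 62 of 744 values, among them Jun and Junb in postnatal Cre+ against Cre- and Jun (0.48 to -0.14) in Littman against Jung without Cre+ replicate 2. The number of members called was within 1.5 times the reported one in 196 of 201 settings. For postnatal Cre+ against Cre-, 5 members were called with no low-count filter and 2 without both the filter and Cre+ replicate 2. For postnatal Littman Cre+ against Jung, 4 were called with no filter and 0 to 1 with 1 library left out, and Junb turned to -0.0495 without Cre+ replicate 2 and to -0.0622 without the filter as well, with 0.78 as the highest value when 1 library was left out.

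Counts of all called genes moved more. With no filter they were 15 for postnatal Jung, 44 for BLZ-titled Littman, 10 for the difference between BLZ-titled lines, 132 and 36 for UC2288 in Cre+ and Cre-, 179 for their difference, and 6 and 10 for adult Jung and Littman. With DESeq2 they were 314 for postnatal Littman against Jung, 5 for BLZ-titled Littman, 1 for the difference between lines, 140 for UC2288 in Cre+ and 163 for the UC2288 difference. RLE size factors gave 21 for UC2288 in Cre+. Leaving out 1 library gave 2 to 8 for postnatal Jung, 296 to 569 for Littman against Jung, 1 to 13 for BLZ-titled Littman, 268 to 579 and 153 to 333 between BLZ-titled lines on oil and tamoxifen, 1 to 266, 0 to 45 and 1 to 533 for UC2288 in Cre+, in Cre- and for the difference, and 0 to 7 for adult Littman. The cause was not tested.

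Same-numbered pairs correlated above 0.1 in 2 of 27, 2 of 21, 1 of 37, 3 of 4 and 0 of 3 cases (postnatal, BLZ-titled, UC2288, adult Jung, adult Littman). In the same order, 5 of 19, 4 of 15, 5 of 21, 3 of 8 and 0 of 7 libraries correlated best with their own number. Replicate numbers gave no sign of pairing outside adult Jung. There the median r was 0.20 for same-numbered and -0.08 for other pairs, and 4 pairs are too few to tell. With the replicate block the counts were 11 for postnatal Jung, 1 for BLZ-titled Littman, 58 for the UC2288 difference and 2 for adult Littman. TMM-scaled totals put the summed members of BLZ-titled Littman oil at 760.2 CPM. With all libraries kept, Fos, Egr1, Atf3, Ier2 and Dusp1 did not pass the low-count filter in any table and 1 count stood for 2.22 to 8.61 CPM, below which a single library shows no level.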
